A study of Mus musculus with 24 samples.

Results

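The genes described here are 9 regulators of the muscle thin filament, measured in mouse heart after an ischemic stroke of the brain. They are the leiomodins Lmod1, Lmod2 and Lmod3, the tropomodulins Tmod1, Tmod3 and Tmod4, the Kelch proteins Klhl40 and Klhl41, and nebulette (Nebl). They were chosen by gene symbol from the 24011 named genes of an Affymetrix array study, and each of the 9 was represented by 1 row of the table. Their Entrez gene identifiers are 93689 for Lmod1, 93677 for Lmod2, 320502 for Lmod3, 21916 for Tmod1, 50875 for Tmod3, 50874 for Tmod4, 72330 for Klhl40, 228003 for Klhl41 and 74103 for Nebl.

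The study took hearts from C57BL/6J mice aged 8 weeks. Mice had either a sham operation or MCAO, the occlusion of the middle cerebral artery, which cuts the blood supply to part of the brain. Hearts were taken 24 h or 72 h later, giving 4 groups of 6 arrays each. Nothing in the labels ties each array to its own animal. Where hearts are counted below, the count is of arrays, and n is the number of arrays. The spread among them may be technical. The labels name no allele or drug in any group, and do not say which part of the heart was used.

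In striated muscle, actin filaments grow and are capped at their pointed ends in the middle of the sarcomere. Tropomodulins cap the pointed end and stop exchange of actin there, whereas the related leiomodins bind actin through extra domains, nucleate filaments and permit them to lengthen. Lmod2 is the leiomodin best known from heart, Lmod3 is known from skeletal and cardiac muscle and is mutated in nemaline myopathy, and Lmod1 is known from smooth muscle. Tmod1 is the tropomodulin of heart and red cells, Tmod3 is broadly expressed, and Tmod4 is known from fast skeletal muscle. KLHL40 is a Kelch protein that stabilises LMOD3 and nebulin in skeletal muscle, KLHL41 is its close relative, and nebulette is the short cardiac relative of nebulin that binds thin filaments at the Z-disc.

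Values are log2 expression, so a difference of 1 is a factor of 2, and a row of the array was compared only with itself across samples. The 9 genes were selected with earlier results of these arrays known, Lmod3 being among the lowest genes after MCAO. The differences between MCAO and sham are therefore given as a description, without p-values. A gene is said to pass the threshold where its limma p-value, adjusted over all 24011 genes by the Benjamini-Hochberg method, was under 0.05. At 24 h, 21.8% of all genes passed, 11.1% of all genes higher and 10.8% lower after MCAO. At 72 h, 2.35% passed, 1.17% higher and 1.19% lower. The 6 MCAO arrays did not overlap the 6 sham arrays in 5.53% of genes at 24 h and in 3.54% at 72 h.

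The arrays were not equally alike. Each MCAO 24 h array correlated with the mean of the rest of its group at an r of 0.971 to 0.991 across genes, against 0.985 to 0.997 in the other groups, and replicates 5 and 6 of MCAO 24 h were the lowest. The median residual SD of a gene was 0.192 at 24 h, sham and MCAO together, and 0.116 at 72 h. A set of 1349 olfactory and vomeronasal receptor genes was also read, the median of their mean levels being 3.21. Expression of some of these genes in heart was not examined. Their leading principal component (here the receptor component) ran from 0.156 to 2.99 in MCAO 24 h and from -1.27 to -0.225 in the 3 other groups. For each of the 9 genes whose difference at 24 h moved by over 1.5 times or turned without replicates 5 and 6, or with that component as a covariate, that value is given beside it. No MCAO 24 h array shared the range of the component in the other groups. With it as a covariate, the component and the MCAO difference at 24 h therefore cannot be told apart. A 24 h call lost under this covariate is given as a value, and nothing is concluded from the loss. The part these differences between arrays play in the results was not tested.

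Lmod3 had the largest difference of the 9 genes at both times. In sham hearts at 24 h its level was lowest at 7.83, at a median of 7.98 and highest at 8.23. After MCAO at 24 h the corresponding values were 5.73, 6.31 and 6.93. All 6 MCAO arrays were thus below the lowest sham array, with a gap of 0.90 between the groups. The mean went from 7.99 ± 0.14 (SD, n = 6) to 6.33 ± 0.43 (SD, n = 6), a difference of -1.67 (SE 0.19), which leaves 31.5% of the sham level. In bulk tissue, fewer cells of a type and less RNA per cell cannot be told apart.

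The same gap was present at 72 h. Sham hearts ran from 7.89 through a median of 8.11 to 8.63, and MCAO hearts from 6.04 through 6.51 to 7.17. Again no MCAO array reached the lowest sham array, the gap being 0.73. The means were 8.18 ± 0.30 in sham and 6.57 ± 0.44 after MCAO (SD, n = 6 each), a difference of -1.61 (SE 0.19), leaving 32.7% of the sham level. In the order of the group means, both sham groups stood 1.42 or more above both MCAO groups, while the neighbours within each pair lay within their SD of one another.

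**Figure D1:**
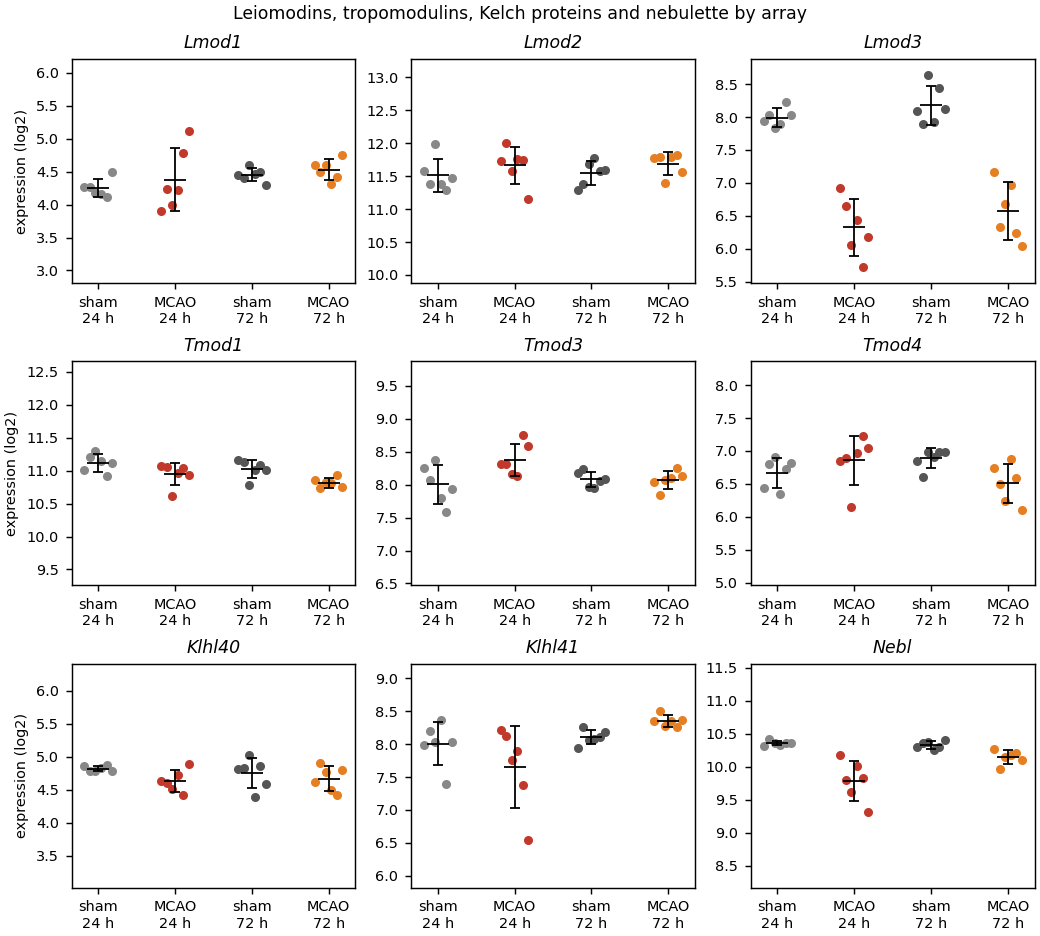
Log2 expression of the 9 genes on each array (points), with group mean and SD (bars), for sham and MCAO at 24 h and 72 h, 6 arrays per group; the vertical axis is log2 and each panel has its own range. Lmod3 is lower on all 12 MCAO arrays than on all 12 sham arrays, Nebl is lower on all 6 MCAO 24 h arrays, and Klhl41 is spread most widely in MCAO 24 h.

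The size of the Lmod3 difference moved little when any 1 array was left out. It ran from -1.79 to -1.55 at 24 h and from -1.73 to -1.51 at 72 h, and passed the threshold in 24 of 24 such fits at each time. Lmod3 was chosen with its low level after MCAO known, so these passes describe the arrays and are no independent test. Without replicates 5 and 6 of MCAO 24 h the difference was -1.48 at 24 h and passed. Once the receptor component was a covariate it was -0.84 (SE 0.28) at 24 h and no longer passed, while at 72 h it was -1.58 and passed. Within MCAO 24 h, the array with the lowest Lmod3, 5.73, had the highest component, 2.99, and the array with the highest Lmod3, 6.93, had the lowest component, 0.156. In MCAO 72 h the component ran from -0.528 to -0.225 and Lmod3 from 6.04 to 7.17. The part of the component in the Lmod3 values was not tested.

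**Figure D2:**
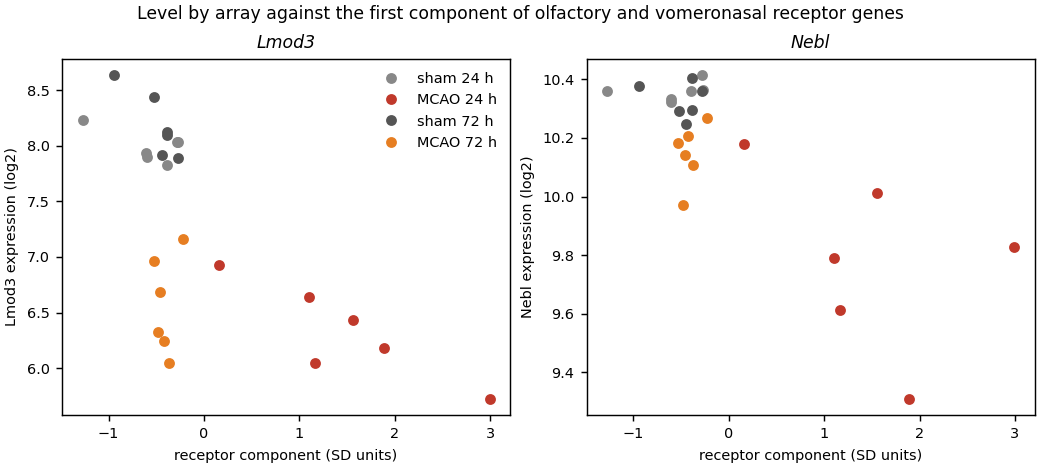
Log2 expression of Lmod3 (left) and Nebl (right) on each of the 24 arrays against the receptor component, in SD units. The MCAO 24 h arrays spread to the right, from 0.156 to 2.99, with Lmod3 between 5.73 and 6.93. The MCAO 72 h arrays sit at component values of -0.528 to -0.225 with Lmod3 between 6.04 and 7.17.

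The difference in Lmod3 was tested between the times and between the sham groups, contrasts built from the same arrays. The MCAO difference at 72 h minus that at 24 h was 0.05 (SE 0.27, limma adjusted p = 0.941), with a 95% interval of -0.50 to 0.61. It turned to -0.13 without MCAO 24 h replicates 5 and 6 and to -0.74 (SE 0.32, limma adjusted p = 0.389) with the receptor component as a covariate. Sham hearts at 72 h were 0.19 (SE 0.19) above sham hearts at 24 h, with an interval of -0.20 to 0.58. Over all genes, 1.79% passed for the difference between times and 0.0208% for sham at 72 h against 24 h. By limma 0 of the 9 genes passed in either, although 4 of the 9 had an unadjusted p under 0.05 in the first and 0 in the second.

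Lmod2, the leiomodin best known from heart, lay close to its sham level throughout. At 24 h sham hearts ran from 11.29 through 11.43 to 11.99 and MCAO hearts from 11.16 through 11.74 to 12, the highest value of Lmod2 on any array. At 72 h sham hearts ran from 11.29 through 11.58 to 11.77 and MCAO hearts from 11.39 through 11.78 to 11.83. The groups overlapped at both times, and MCAO was higher by 0.15 (SE 0.13) at 24 h and by 0.14 at 72 h, and by 0.25 at 24 h without MCAO 24 h replicates 5 and 6, without passing. The 95% interval of the 24 h difference was -0.11 to 0.41, so a rise of up to that size is within the error.

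Lmod1, the smooth muscle leiomodin, also overlapped in every comparison. Its mean over all arrays was 4.40, above the means of 55.7% of genes, and 95% of the receptor genes had means under 3.94. Whether this low level limits the differences seen was not tested. Sham hearts averaged 4.25 ± 0.14 at 24 h and 4.45 ± 0.10 at 72 h, and MCAO hearts 4.38 ± 0.48 and 4.53 ± 0.16 (SD, n = 6 each). The wide SD of MCAO 24 h came from values of 3.90 in replicate 1 up to 5.12 in replicate 6. The differences were 0.13 (SE 0.15) at 24 h and 0.08 at 72 h, and the median at 24 h was 4.22 in sham and 4.23 after MCAO. The direction at 24 h was not stable: it was -0.16 without MCAO 24 h replicates 5 and 6, -0.021 without replicate 6 alone, -0.12 with array weights and -0.56 (SE 0.21) with the receptor component as a covariate. The 95% interval at 24 h was -0.17 to 0.43, and none of these values passed the threshold. For Lmod3 the interval at 24 h was -2.06 to -1.27.

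**Figure D3:**
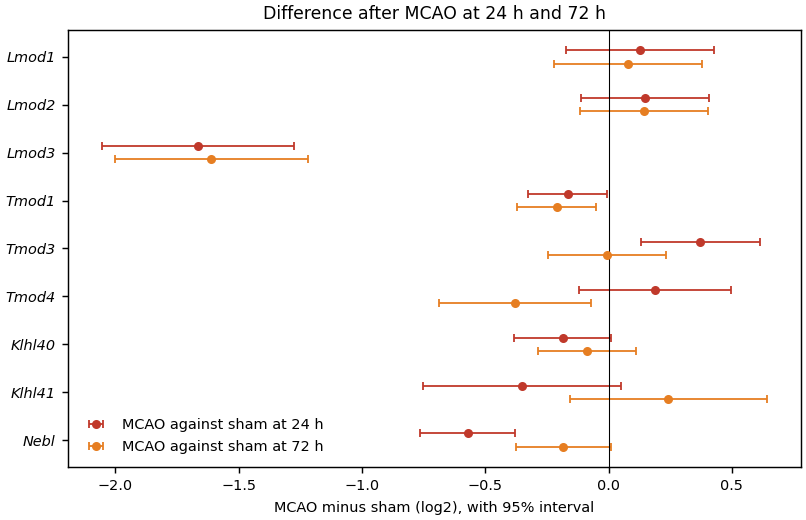
MCAO minus sham in log2 units for each of the 9 genes at 24 h (red) and 72 h (orange), with 95% intervals from the fit to all 24 arrays. Lmod3 lies near -1.6 at both times with intervals far from 0, Nebl lies below 0 at 24 h with an interval of -0.76 to -0.38, and most other intervals include 0.

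Among the tropomodulins, Tmod1, the pointed-end cap of heart muscle, was slightly lower after MCAO. At 24 h sham hearts ran from 10.92 through 11.13 to 11.29 and MCAO hearts from 10.62 through 11.00 to 11.08. At 72 h the values were 10.78, 11.05 and 11.17 in sham and 10.73, 10.82 and 10.94 after MCAO. All 6 MCAO hearts were below the sham mean at each time, but the groups overlapped. The difference was -0.17 (SE 0.08) at 24 h and -0.21 (SE 0.08) at 72 h, and neither passed the threshold. The 24 h difference was -0.31 under the receptor covariate and did not pass.

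Tmod3, the broadly expressed tropomodulin, was the only one of the 9 to pass the threshold in the higher direction. Sham hearts at 24 h ran from 7.59 through 8.00 to 8.38, and MCAO hearts from 8.13 through 8.31 to 8.76. The groups overlapped, with 2 of 6 MCAO hearts above the highest sham heart, and the difference was 0.37 (SE 0.12). It did not pass without MCAO 24 h replicate 5, where Tmod3 was highest, nor without sham 24 h replicate 4 or replicate 5, with array weights or with only the groups compared. It was 0.22 without MCAO 24 h replicates 5 and 6, and -0.10, in the other direction, with the receptor component as a covariate. At 72 h the sham mean was 8.08 ± 0.12 and the MCAO mean 8.07 ± 0.13 (SD, n = 6 each), with a difference of -0.01. The change of the MCAO difference between the times was -0.38 (SE 0.16, limma adjusted p = 0.229).

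Tmod4 is known from fast skeletal muscle, and its groups overlapped at both times. At 24 h sham hearts ran from 6.34 through 6.76 to 6.90 and MCAO hearts from 6.15 through 6.94 to 7.22, a difference of 0.19 (SE 0.15). At 72 h sham hearts ran from 6.60 through 6.95 to 6.99 and MCAO hearts from 6.10 through 6.54 to 6.88, a difference of -0.38 (SE 0.15). At 72 h 4 of 6 MCAO hearts were below the lowest sham heart, and at 24 h 3 of 6 were above the highest. The 24 h value was 0.049 without MCAO 24 h replicates 5 and 6 and turned to -0.13 under the receptor covariate, the direction of 72 h. Neither difference passed the threshold, and their change of -0.57 (SE 0.21) between times did not pass either (limma adjusted p = 0.158). With array weights, Tmod1 and Tmod4 passed at 72 h.

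Klhl40, the Kelch protein that stabilises LMOD3 in skeletal muscle, was narrow in sham hearts at 24 h. There it ran from 4.79 through 4.81 to 4.87, and after MCAO from 4.43 through 4.62 to 4.89. In 5 of 6 MCAO hearts it was below the lowest sham heart and in 1 it was above the highest, with a mean difference of -0.19 (SE 0.10). At 72 h sham hearts ran from 4.40 to 5.03 and MCAO hearts from 4.41 to 4.90, the difference being -0.09. Neither passed the threshold, and the 24 h value was -0.054 under the receptor covariate. Klhl40 was also measured at a low level, with a mean of 4.72 over all arrays.

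Klhl41, its relative, was the most scattered of the 9 in MCAO 24 h. Sham hearts at 24 h ran from 7.40 through 8.04 to 8.37 and MCAO hearts from 6.54 in replicate 6 through 7.83 to 8.21. The difference of -0.35 (SE 0.19) shrank to -0.01 without MCAO 24 h replicates 5 and 6, and turned to 0.12 (SE 0.34) under the receptor covariate. At 72 h sham hearts ran from 7.94 through 8.09 to 8.25 and MCAO hearts from 8.26 through 8.35 to 8.50. These 2 groups did not overlap, by a gap of 0.00391, yet the difference of 0.24 (SE 0.19) passed the threshold in the fit of the 12 arrays of 72 h and not in the fit of all 24, whose shared spread includes the scattered 24 h arrays. The change of its MCAO difference between the times was 0.59 (SE 0.27, limma adjusted p = 0.260).

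Nebl, the cardiac nebulin relative, was the other gene to pass in the lower direction at 24 h. Sham hearts lay within 10.32 and 10.41, with a median of 10.36, and MCAO hearts ran from 9.31 in replicate 6 through 9.81 to 10.18 in replicate 1. All 6 MCAO hearts were below all 6 sham hearts, by a gap of 0.14, and the difference was -0.57 (SE 0.09), leaving 67.3% of the sham level. It passed in 24 of 24 fits without 1 array and was -0.46, still passing, without MCAO 24 h replicates 5 and 6. The covariate took it to -0.37, where it did not pass. The 9 genes were chosen with the MCAO results known, so the passes of Nebl are no independent test.

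At 72 h the Nebl groups came closer. Sham hearts ran from 10.25 through 10.33 to 10.40 and MCAO hearts from 9.97 through 10.16 to 10.27, so that 5 of 6 MCAO hearts were below the lowest sham heart. The difference was -0.18 (SE 0.09) and did not pass. Nebl had the lowest adjusted p of the 9 for the change between times, which was 0.39 (SE 0.13, limma adjusted p = 0.121). The order of its group means was sham 24 h, sham 72 h, MCAO 72 h and MCAO 24 h, and the steps of 0.18 and 0.36 around MCAO 72 h were larger than the SD of the groups they join, with overlapping ranges.

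Over the 9 genes at 24 h, 1 passed in the higher direction and 2 in the lower, set beside 21.8% of all genes, and the median difference was -0.17 against 0.01 over all genes. At 72 h, 0 passed in the higher direction and 1 in the lower by limma, with 3 at an unadjusted p under 0.05, set beside 2.35% of all genes, and the median difference was -0.09 against 0.00. The MCAO and sham ranges did not overlap for Lmod3 and Nebl at 24 h, set beside 5.53% of all genes. At 72 h they did not overlap for Lmod3 and Klhl41, set beside 3.54% of all genes. Because the genes were chosen with the MCAO results known, nothing is read from these counts.

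Further genes of the thin filament pathway were taken from 5 lists and read in the same fit. The counts below come from that fit, with limma adjusted p-values over all 24011 genes. Each count stands beside 21.8% of all genes past the threshold at 24 h and 2.35% at 72 h. Nothing about a list is read from its count. These lists were also chosen with earlier results of these arrays known, and the genes named are mainly those with the smallest p. Their adjusted p-values therefore describe these arrays and are no independent test. Of 15 thin filament core genes (actins, tropomyosins, troponins and nebulin), 1 rose and 2 fell at 24 h, with a median of -0.04. At 72 h 0 passed by limma, 5 had an unadjusted p under 0.05, and the median was -0.10. Neb, the giant nebulin that templates the thin filament in skeletal muscle, rose by 0.56 (SE 0.15, adjusted p = 0.00958), from 4.88 ± 0.30 to 5.44 ± 0.35 (SD, n = 6 each). Its relative Nebl was lower in the same hearts. The fast skeletal troponins fell, Tnnt3 by 0.62 (SE 0.09, adjusted p = 3.53e-05) and Tnni2 by 0.41 (SE 0.12, adjusted p = 0.0175). The Tnnt3 mean after MCAO, 3.83, lies within the level of the receptor genes. The Tnni2 call was lost without MCAO 24 h replicates 5 and 6, leaving 1 that fell. Under the receptor covariate 0 of the 15 genes passed at 24 h by limma, with 2 at an unadjusted p under 0.05. At 72 h the skeletal actin Acta1 was 0.98 lower (SE 0.29) without passing (adjusted p = 0.0800), and the tropomyosin Tpm4 was 0.55 lower with no overlap of its groups (adjusted p = 0.0790). Tpm4 passed at 72 h without MCAO 24 h replicates 5 and 6 (adjusted p = 0.0310). Mean Acta1 went from 10.32 ± 0.48 to 9.34 ± 0.53 (SD, n = 6 each). Other genes of the list with the smallest p did not pass: Tpm3 was lower by 0.17 at 24 h, and the cardiac troponins Tnnc1 and Tnni3 by 0.25 and 0.16 at 72 h.

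Of 21 genes for actin assembly and capping, 2 rose and 5 fell at 24 h, and 1 rose and 1 fell at 72 h. Tmsb4x, the thymosin that sequesters actin monomers, fell by 0.82 (SE 0.16, adjusted p = 0.00108) at 24 h. Capza1, a subunit of the capping protein of the barbed end, fell by 0.58 (adjusted p = 0.00811), and Wdr1, a cofactor of cofilin in filament disassembly, by 0.49 (adjusted p = 0.00157). Daam1, a formin that nucleates and elongates actin filaments, fell at both times, by 0.52 (SE 0.12, adjusted p = 0.00259) at 24 h and by 0.56 (SE 0.12, adjusted p = 0.00675) at 72 h. Its 72 h levels were 8.16 to 8.33 in sham and 7.46 to 8.08 after MCAO, without overlap. Gsn, the filament-severing gelsolin, rose by 0.39 at 72 h (adjusted p = 0.0145). Tmsb4x was 0.39 lower at 72 h without passing, and passed there without MCAO 24 h replicates 5 and 6 (adjusted p = 0.00643). Tmod2, the neuronal tropomodulin, was 0.25 higher at 72 h without passing (adjusted p = 0.382). Under the receptor covariate 1 of the 21 genes passed at 24 h, Wdr1 at -0.72.

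Of 24 Z-disc genes and nebulin partners, 3 rose and 2 fell at 24 h, and 2 rose and 0 fell at 72 h, with medians of 0.01 and 0.03. Myot, the Z-disc protein myotilin, rose by 0.84 (SE 0.22, adjusted p = 0.00972), and Mypn, myopalladin, which links nebulin and nebulette to alpha-actinin, rose by 0.39 (SE 0.08, adjusted p = 0.00186). Xirp2 fell by 0.45 (adjusted p = 0.0133) and Lasp1, a nebulin-family actin-binding protein, by 0.51 (adjusted p = 0.0174). At 72 h Nrap, a further nebulin-family protein that takes part in myofibril assembly, rose by 0.44 (adjusted p = 0.0140), and Des, the intermediate filament protein desmin, by 0.32 (adjusted p = 0.0176). For these 2 the ranges of MCAO and sham did not overlap. The Z-disc genes Pdlim5, higher by 0.37, and Tcap, lower by 0.38, did not pass at 72 h. The rise of Mypn differed between the times by -0.53 (adjusted p = 0.0242). Under the receptor covariate 0 of the 24 passed at 24 h by limma, with 1 at an unadjusted p under 0.05, and 2 passed at 72 h.

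Of 15 Kelch and Cul3 ligase genes, 3 rose and 2 fell at 24 h, and 0 rose and 2 fell at 72 h. Klhl30, a further Kelch gene, fell at both times, by 0.97 (SE 0.12, adjusted p = 1.11e-05) at 24 h and by 0.61 (SE 0.12, adjusted p = 0.00479) at 72 h. Its sham hearts ran from 6.49 to 7.06 at 24 h and its MCAO hearts from 5.49 to 6.15, without overlap. Under the receptor covariate it still passed at 24 h, at -1.10, as did Enc1, which rose by 0.51 (adjusted p = 0.0146) without it and was 0.98 higher with it. Klhl31, a Kelch protein needed by skeletal muscle, fell by 0.29 at 72 h (adjusted p = 0.0476). Kbtbd13, mutated in nemaline myopathy like Lmod3, Klhl40 and Klhl41, fell by 0.21 at 24 h (adjusted p = 0.0429), from a sham mean of 3.93 that lies within the level of the receptor genes. The Kbtbd13 call was lost without MCAO 24 h replicates 5 and 6. Ipp rose by 0.45 at 24 h (adjusted p = 0.0189), and at 72 h Nedd8, lower by 0.35, and Kbtbd13, lower by 0.17, did not pass.

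Lmod genes are known targets of serum response factor (SRF) and MEF2 in muscle. Of 12 genes for SRF, its MRTF cofactors and MEF2, 3 rose and 5 fell at 24 h, and 1 rose and 0 fell at 72 h. Srf fell by 0.40 (adjusted p = 0.0306), Mef2a by 0.53 (adjusted p = 0.00284), Mef2c by 0.32 (adjusted p = 0.0289) and Fhl2, a LIM protein that binds SRF, by 0.63 (adjusted p = 0.000104), all at 24 h. Without MCAO 24 h replicates 5 and 6 the Srf call was lost (adjusted p = 0.0882), and 2 genes of the list rose and 4 fell. Srf and Mef2c lie outside the rule for naming genes at 24 h, since 4 others of the list had smaller p-values, and within it at 72 h. Abra, the striated muscle activator of MRTF signalling, rose by 0.87 (SE 0.12, adjusted p = 2.83e-05) at 24 h and by 0.76 (adjusted p = 0.000473) at 72 h. Mrtfa rose by 0.46 (adjusted p = 0.000971) at 24 h. Abra was the gene of the list past the threshold at 72 h, where Lmod3 was also low; at that time Srf was lower by 0.33 and Mef2c by 0.25 without passing (adjusted p = 0.271 and 0.300). Fhl2 was 0.28 lower at 72 h, and passed there without MCAO 24 h replicates 5 and 6 (adjusted p = 0.0188). Under the receptor covariate 0 of the 12 passed at 24 h by limma, with 4 at an unadjusted p under 0.05.

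**Figure D4:**
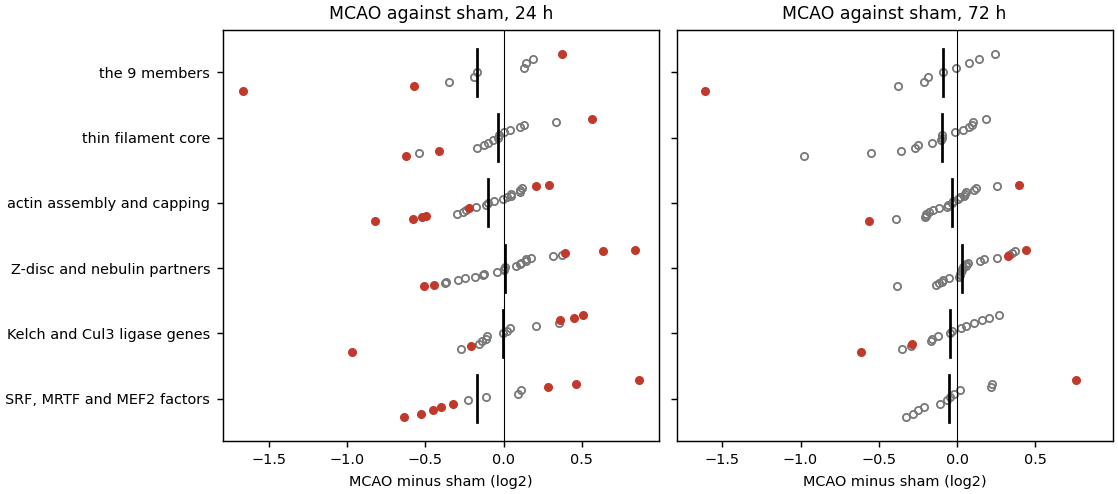
MCAO minus sham in log2 units for each gene of the 9 members and of the 5 pathway lists at 24 h (left) and 72 h (right); filled red points passed the adjusted p threshold, open points did not, and the vertical bars are the medians. The list medians lie between -0.17 and 0.03, and Lmod3 lies further from 0 than any gene of the 5 lists at both times.

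Markers of cell types were read beside these results, from lists chosen with the same prior knowledge and with p-values under the same limit. All counts of marker genes likewise stand beside 21.8% of all genes past the threshold at 24 h and 2.35% at 72 h. Of 15 cardiomyocyte genes, 0 rose and 5 fell at 24 h (median -0.17), and 0 rose and 1 fell at 72 h (median -0.12). Their mean per array at 24 h was 11.74 to 11.91 in sham and 11.59 to 11.75 after MCAO, with overlap. At 72 h it was 11.79 to 11.89 in sham and 11.64 to 11.77 after MCAO, without overlap. Of the 15 genes, 0 lay at the level of the receptor genes. The marker with the lowest p at 72 h was Ckmt2, the mitochondrial creatine kinase, which fell by 0.41 (SE 0.06, adjusted p = 0.000222), while at 24 h those with the lowest were Gata4, a cardiac transcription factor, which fell by 0.58 (SE 0.14, adjusted p = 0.00517), and Ttn, titin, which fell by 0.17 (adjusted p = 0.00976). At 72 h Ttn was 0.15 lower without passing, and Gata4 0.12 lower. Lmod3 differed from sham by -1.67 and -1.61 in the same hearts. Without MCAO 24 h replicates 5 and 6, 4 of the 15 fell at 24 h and 3 at 72 h, and under the receptor covariate 0 passed at 24 h by limma, with 1 at an unadjusted p under 0.05. The part of cardiomyocyte number in the Lmod3 difference was not tested.

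Several of the 9 genes are best known from skeletal muscle, so its markers were read as well. Of 18, 11 lay at or under 3.94, the level below which the means of 95% of the receptor genes lie, among them the fast myosins Myh1, Myh2 and Myh4, Actn3 and Pvalb. At 24 h 1 rose and 2 fell, and at 72 h 0 passed by limma, with 1 at an unadjusted p under 0.05. The mean over the list per array was 3.97 to 4.13 in sham and 3.88 to 4.12 after MCAO at 24 h, and 4.02 to 4.19 and 4.03 to 4.10 at 72 h. Myl1, an alkali light chain of fast skeletal muscle, fell by 0.90 at 24 h (SE 0.21, adjusted p = 0.00361). Myod1 rose by 0.36 (adjusted p = 0.0127) from a sham mean of 3.86, which lies within the level of the receptor genes. At 72 h the smallest p-values were those of Myf6, lower by 0.10, and Myh4, higher by 0.12, neither past the threshold. At 72 h the 2 groups overlapped in the mean over the skeletal list, which rests largely on genes at the receptor level. The part of skeletal muscle in the values of the 9 genes was not tested.

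Lmod1 was set beside 13 smooth muscle genes. At 24 h 1 rose and 3 fell, and at 72 h 0 rose and 1 fell, Smtn, or smoothelin, falling by 0.47 (adjusted p = 0.000165) and 0.37 (adjusted p = 0.00641) at the 2 times. The smooth muscle actin Acta2 fell by 0.84 at 24 h (SE 0.18, adjusted p = 0.00234), and Notch3 rose by 0.41 (adjusted p = 0.00198). In the same hearts Lmod1, whose direction turned between settings as given above, did not pass. At 72 h Acta2 was 0.67 lower (adjusted p = 0.0529), and passed without MCAO 24 h replicates 5 and 6 (adjusted p = 0.0368). The mean over the list per array was 7.04 to 7.30 in sham and 6.96 to 7.03 after MCAO at 24 h, without overlap. At 72 h it was 7.13 to 7.49 and 6.96 to 7.50, with overlap. Of 9 atrial genes 2 rose at 24 h, and their mean per array reached 8.73 in MCAO 24 h, against up to 6.53 in sham 24 h, 7.96 in sham 72 h and 8.49 in MCAO 72 h. The 2 that rose were Stard10, by 1.15 (adjusted p = 0.0155), and Nr2f2, by 0.40 (adjusted p = 0.0207), and the latter was lost without MCAO 24 h replicates 5 and 6. At 72 h 0 passed by limma, with 1 at an unadjusted p under 0.05, Tbx5 being 0.52 higher and Nr2f2 0.17 higher. Tbx5 was 0.43 higher at 24 h (adjusted p = 0.0520), and passed there without MCAO 24 h replicates 5 and 6 (adjusted p = 0.0219). Under the receptor covariate Tbx5 passed at 24 h, at 1.02 (adjusted p = 0.0430), and at 72 h, at 0.54 (adjusted p = 0.0323). The median over the atrial list was 0.53 at 24 h and 0.17 at 72 h.

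Fibroblast genes were read in the same hearts. Of 10, 5 fell and 0 rose at 24 h (median -0.49), and 1 fell and 1 rose at 72 h (median -0.43), where 7 had an unadjusted p under 0.05. Col3a1, a fibrillar collagen chain, fell by 1.63 at 24 h (SE 0.31, adjusted p = 0.000729) and by 1.45 at 72 h (SE 0.31, adjusted p = 0.00863), sizes near those of Lmod3. Lum, the matrix proteoglycan lumican, fell by 1.31 at 24 h (SE 0.21, adjusted p = 0.000185), and the gene of this list that rose at 72 h was Gsn, given above. The mean over the list per array was 8.02 to 8.43 in sham and 7.06 to 7.84 after MCAO at 24 h, without overlap, and 7.80 to 8.92 and 7.57 to 8.11 at 72 h. Without MCAO 24 h replicates 5 and 6, 2 of the 10 rose and 2 fell at 72 h. Of 9 endothelial genes 2 rose and 1 fell at 24 h, and 1 rose and 1 fell at 72 h. Kdr, the VEGF receptor, fell by 0.88 (adjusted p = 2.59e-05) at 24 h and 0.68 (adjusted p = 0.00165) at 72 h. Tie1 rose by 0.46 at 24 h (adjusted p = 0.00153). Pecam1 rose at both times, by 0.27 at 24 h (adjusted p = 0.00439) and by 0.29 at 72 h (adjusted p = 0.0128). Of 9 leukocyte genes 0 passed by limma at either time, with 2 at an unadjusted p under 0.05 at 24 h and 1 at 72 h. Those with the smallest p were Ly6g, higher by 0.22, and Adgre1, lower by 0.40, at 24 h, and Adgre1, lower by 0.35, and Ptprc, lower by 0.53, at 72 h. The mean of Ly6g lay within the level of the receptor genes. Of the 10 fibroblast genes 1, Lum, fell at 24 h under the receptor covariate, and 0 of the skeletal, smooth muscle and endothelial genes passed by limma, with 2, 3 and 2 at an unadjusted p under 0.05. The part of these cell types in the values of the 9 genes was not tested.

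The other 8 genes were then related to Lmod3 across arrays within groups, by subtracting each group mean, over all 24 arrays with permutation within groups (100000 resamples, two-sided, adjusted over 8 relations). By these adjusted values 0 of the 8 passed, and 0 had an unadjusted permutation p under 0.05. The highest was Nebl, with Pearson's r of 0.452 (permutation p = 0.0914, adjusted 0.365) and Spearman's rho of 0.403 (p = 0.0978 by permutation, adjusted 0.400). Without the 2 arrays farthest from the median of Lmod3, MCAO 24 h replicate 1 and MCAO 72 h replicate 1, r was 0.237, and it was 0.525 within the 24 h arrays and 0.488 within the 72 h arrays. The lowest was Tmod3, with r of -0.382 (permutation p = 0.0542, adjusted 0.365) and rho of -0.351. Tmod4 had an r of 0.312, which was 0.00406 within 24 h and 0.670 within 72 h, and 0.641 (permutation, adjusted p = 0.0254) with the receptor component as a covariate.

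Named genes were also ranked by likeness to Lmod3, leaving out predicted genes with Gm or Rik symbols. The 5 closest after group means were subtracted were Mylk4, Nt5c1a, Ces1h, Ifi203 and Mtfp1. Their r over 24 arrays was 0.821, 0.800, 0.791, 0.774 and 0.754. Mylk4 is a myosin light chain kinase family member and Mtfp1 a mitochondrial fission protein. Mylk4 ran from 7.62 to 8.61 in sham and 6.75 to 8.13 after MCAO at 24 h, and from 7.89 to 8.50 and 6.21 to 7.87 at 72 h, lower after MCAO at both times with overlap at 24 h alone. Ces1h stayed between 3.33 and 3.63 on every array, within the level of the receptor genes. With group differences kept in, the 5 closest were Mlf1, Hk2, Lrrc14b, Fbxl22 and Plxnd1, with r between 0.918 and 0.936, values that include the gap between the sham and MCAO arrays. Hk2, the muscle hexokinase, ran from 9.18 to 9.51 in sham and 8.48 to 8.96 after MCAO at 24 h, and from 9.40 to 9.77 and 8.64 to 9.23 at 72 h, without overlap at either time. Of the 9 genes, Nebl came nearest to Lmod3 on that scale, with r of 0.773 and rank 149 among the genes so ranked.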

How the data were processed

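Total RNA of mouse hearts was measured on 24 Affymetrix arrays in 4 groups of 6, per the labels. Titles, source names and time labels set the groups. The free-text descriptions of the 72 h samples name the earlier time and were not followed. Nothing in the labels ties each array to its own animal, so the p-values reflect the spread among the arrays, which may be technical. Deposited were log2 values for 24973 identifiers, with a lowest value of 2.78 and a highest of 13.5. The authors had quantile-normalized them, as judged from the deposited values: sorted values were identical in 23 arrays and differed by at most 0.00191 in the other. The base of the log was inferred from the values. How probes were summarized, with which software and on which build, is not given in the sources used here. HOMER appears in the submitters' processing notes, its role unstated.

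Identifiers with 1 symbol (24015, with 958 unnamed here) gave 24011 genes, the identifier with the highest mean being kept for 4 symbols. No filter on low values was used, and the array design gives no coordinates here. The number of arrays limits the precision. Genes were tested with limma 3.58.1 in R 4.3.3 (4 group means, lmFit and eBayes, residual degrees of freedom 20), and p-values were adjusted by Benjamini and Hochberg's method at 0.05. On simulated data the fit recovered 76.1% of changes of 0.5 on the log2 scale for MCAO against sham at 24 h. For the change between times it recovered 44.8%. False calls were 6.67% of the calls in the first and 8.28% in the second. The simulation changed 200 genes and gave a gene the same SD in every group, unlike these arrays, so recovery here may differ.

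The 9 genes and the 12 lists of 166 genes, 165 of them measured, with the last not analysed here, were chosen with earlier results of these data known. Named were the 9 genes, from each pathway list the 4 genes with the smallest p at each time, from each cell type list the 2 with the smallest p at each time, and the 5 genes most like Lmod3 on each scale. Some other genes were named after their values were seen: Srf and Mef2c at 24 h, Acta2, Tbx5 and Pecam1 at 24 h, and the skeletal genes listed by level. Alternatives were a trended and robust prior, a filter on dim genes, centring on the median, the replicate number as a block, array weights, the receptor component as a covariate, fitting only the groups compared and leaving out arrays. Same-numbered samples of different groups had a median correlation of -0.00459 of their deviations from the group means, from -0.229 to 0.151, over 36 pairs, so the numbers were not taken to pair samples.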

Additional observations from a re-analysis of the deposited data

Results flagged for a closer look

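Within groups of 6 arrays, 10 of 184 groups over 46 genes held a highest or lowest array far from the rest by Dixon's criterion, and chance gives about 1 in 20. Among the 9 genes these were MCAO 24 h replicate 3, with Tmod1 at 10.6 and Tmod4 at 6.15, the lowest of their groups, and sham 72 h replicate 2, with Tmod4 at 6.60. Among the list genes they were Des at 11.5 in sham 72 h replicate 3, Mef2a at 10.6 in the same array, Mrtfa at 5.07 in MCAO 72 h replicate 1, Ckmt2 at 11.7 in MCAO 24 h replicate 6, Stard10 at 9.67 in MCAO 24 h replicate 1, and Col3a1 at 8.55 in sham 72 h replicate 2 and at 6.14 in MCAO 72 h replicate 6.

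The MCAO difference at 72 h minus that at 24 h passed the threshold for 3 named list genes (limma adjusted p). It was 0.60 for Tnnt3 (SE 0.12, adjusted p = 0.0146), -0.53 for Mypn (SE 0.12, adjusted p = 0.0242) and 0.31 for Myh4 (SE 0.08, adjusted p = 0.0476), whose level lies within that of the receptor genes. None of the 9 genes passed in this contrast, with a lowest limma adjusted p of 0.121.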

How the results depend on the processing

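Of the 9 genes, 3 passed at 24 h, 1 at 72 h and 0 in the other 2 contrasts. These counts were the same with the replicate block (3, 1, 0 and 0), a trended and robust prior, a filter on dim genes and centring on the median. The count at 24 h was 2 with array weights, with only the groups compared and without MCAO 24 h replicates 5 and 6, Tmod3 being lost in each, and 0 with the receptor component as a covariate (limma, 4 at an unadjusted p under 0.05). At 72 h it was 3 with array weights and 2 with only the groups compared. Leaving out 1 array gave 0 to 1 for the change between times, 1 without MCAO 24 h replicate 1 (Nebl) or replicate 3 (Tmod4). The cause was not tested, and at 24 h the covariate cannot be told apart from the MCAO group. Directions turned in the following cases. With the covariate, Tmod3 at 24 h was -0.10, Lmod1 -0.56, Tmod4 -0.13, Klhl41 0.12, Mef2a 0.091 and Tnni2 0.059. Lmod1 at 24 h was also -0.16 without MCAO 24 h replicates 5 and 6, -0.12 with array weights and -0.021 without replicate 6, and Tmod3 at 72 h, at -0.01, was 0.0033 with array weights and ranged up to 0.039 over arrays left out. The change between times was 0.61 for Lmod1, -0.74 for Lmod3, 0.091 for Tmod1, 0.080 for Tmod3 and -0.029 for Klhl40 with the covariate, 0.20 for Lmod1 and -0.075 for Lmod3 with array weights, and 0.24 and -0.13 without MCAO 24 h replicates 5 and 6. Over single arrays left out it ran from -0.15 to 0.10 for Lmod1, -0.11 to 0.064 for Lmod2 and -0.066 to 0.17 for Lmod3. The sham difference likewise ran from -0.014 to 0.13 for Lmod2, -0.0076 to 0.15 for Tmod3, -0.12 to 0.0089 for Klhl40 and -0.020 to 0.17 for Klhl41. Among relations with Lmod3, r was 0.109 for Lmod1 and 0.196 for Tmod1 with the covariate, and 0.0688 for Tmod1 and -0.00902 for Klhl41 without replicates 5 and 6. With the covariate 1 relation of 8 passed, and 0 otherwise. Of the 43 calls of named list genes, 27 were lost with the covariate, Mef2a and Tnni2 among them, 12 with only the groups compared, 7 with array weights, 3 without replicates 5 and 6 and 2 with the replicate block.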
